A study of Mus musculus with 6 samples.

Results

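miR-210 is a single-copy microRNA whose hairpin gives 2 mature strands, mmu-miR-210-3p and mmu-miR-210-5p, and both were among the 1626 mouse miRNAs counted in small RNA libraries of fetal liver. The libraries came from C57BL/6J embryos, 3 of the wild-type genotype (WT, numbered 1 to 3) and 3 of the genotype miR-144/451-/- (KO, numbered 4 to 6), and no group received a treatment. The labels give 5000000 liver cells per library, and they do not give the embryonic day or say whether the replicates were separate embryos, so the spread between libraries may be partly technical. The 2 arms were chosen by name, with their KO and WT levels in these same libraries already known. Their levels are therefore a description, and no test of them is used as support. Both arms passed the filter on low counts, which kept 876 miRNAs, 873 of them outside the miR-144/451 locus.

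miR-210 is best known as the miRNA that rises most widely when cells lack oxygen. The hypoxia-inducible factor HIF-1 binds its promoter, and the 3p strand, which is loaded into Argonaute, represses mRNAs such as those of the iron-sulfur cluster scaffold Iscu and the ephrin Efna3, which links it to mitochondrial respiration and to blood vessel growth. It has also been linked to the maturation of red cells, which form in the fetal liver. miR-144 and miR-451a, the products of the deleted locus, are abundant erythroid miRNAs.

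The mature strands and the hairpin are shown because the level and the balance of these strands are what the libraries measured. The sequences are from RefSeq on GRCm38.p6, and the capitals in the mature strands mark the seed, bases 2 to 8, through which a miRNA pairs with its targets.
mmu-miR-210-3p: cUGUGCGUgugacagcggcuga
mmu-miR-210-5p: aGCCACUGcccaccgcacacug

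In the 110-base hairpin the capitals mark the 5p strand, bases 28 to 49, and the 3p strand, bases 66 to 87.
Mir210: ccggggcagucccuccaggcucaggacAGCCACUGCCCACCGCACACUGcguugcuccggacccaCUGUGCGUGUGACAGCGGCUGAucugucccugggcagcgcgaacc

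Both strands are 22 bases long and rich in G and C, at 63.6% for 3p and 68.2% for 5p. They are separated by 16 bases of loop. In the minimum free energy fold of the hairpin (-48.0 kcal/mol, a prediction) 16 of the 22 bases of each strand paired with the other strand, and 6 of the 7 seed bases of each strand were among them. Mir210 lies on the minus strand of chromosome 7, at 141221384 to 141221493 in GRCm38. The 3p strand is at 141221407 to 141221428 and the 5p strand at 141221445 to 141221466. In GENCODE M21 the hairpin overlaps 0 other genes and lies between Rassf7, whose nearer end is 2726 bases away, and Phrf1, 7291 bases away on the other side. Of the other mature miRNAs in a RefSeq set of 1679, 0 share bases 2 to 8, bases 2 to 7 or bases 1 to 7 with either strand. So miR-210 has no seed family in this set, and its counts cannot be read together with those of a relative. Of the 1626 miRNAs counted, 1376 had a RefSeq sequence to compare. Likewise 0 other miRNAs had counts within 5% of either arm in every library. The closest were miR-301a-3p for the 3p strand and miR-185-3p for the 5p strand, with largest differences of 19.2% and 25.2%, so each arm is a signal of its own.

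The libraries held 16243894 to 27089133 miRNA counts each. The miR-144/451 products took 17.6% to 24.1% of the counts in WT and 0.0214% to 0.0231% in KO, so the deleted locus matched the genotype label in all 6 libraries. A miRNA that did not change at all would therefore hold a larger share of a KO library. For this reason each level is given per 1000000 counts of the whole library (CPM), per 1000000 counts with the miR-144/451 rows left out, and after TMM scaling, which sets the typical miRNA equal between libraries. The median log2 fold of the 873 other miRNAs, KO over WT, was 0.34 in whole-library CPM, 0.01 without the locus and -0.01 after TMM scaling. A count of 0 would allow up to 0.111 to 0.185 CPM, taking 3 counts as its upper limit, and both arms were far above that in every library. Such limits and the intervals below cover counting error only.

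Marker miRNAs of the labelled tissue were present in all libraries. The 4 hepatocyte markers (miR-122-5p, miR-192-5p, miR-194-5p and miR-802-5p) summed to 33936 to 131605 TMM-scaled CPM in WT and 42258 to 102326 in KO, and the erythroid miR-486a-5p averaged 67092 ± 20446 and 58498 ± 10259 (SD, n = 3 each). The 2 blood markers miR-142a-3p and miR-223-3p summed to 37142 to 44704 in WT and 28812 to 45822 in KO. The 2 strands of the endothelial miR-126a summed to 7323 to 10523 and 7734 to 11046. The lymphoid miR-150-5p stood at 30.9 to 65.8 in WT and 22.7 to 42.3 in KO. The 3 muscle markers (miR-1a-3p, miR-133a-3p and miR-206-3p) summed to 400.3 in WT library 1 and 13.3 to 83.5 in the others, and the 2 neural markers (miR-9-5p and miR-124-3p) to 431.9 in WT library 1 and 16.6 to 94.5 in the others. WT library 1 thus stood apart in miRNAs of other tissues. None of these markers was at 0 in all libraries.

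miR-210-3p was higher in KO than in WT fetal liver, by a ratio of means of 1.93 to 2.48 depending on the scaling. The genotypes did not overlap under any of the 3 scalings. KO values all above WT values were found for 31.3% of the 873 miRNAs in whole-library CPM. That share was 15.1% without the locus rows and 15.9% after TMM scaling. miR-210-3p held 16284, 21139 and 13663 counts in WT libraries 1 to 3 and 31709, 30108 and 37971 in KO libraries 4 to 6. The highest raw count in WT came from the deepest library and was still below the lowest in KO. In whole-library CPM it stood at 785.1, 780.4 and 597.9 in WT and 1952, 1825 and 1580 in KO. Wilson 95% intervals were narrow, for example 587.9 to 608.0 in WT library 3 and 1564 to 1595 in KO library 6, so counting error was small beside the spread between libraries. The lowest KO library stood 2.01 times above the highest WT library on this scale. The means were 721.1 ± 107 and 1786 ± 189 CPM (SD, n = 3 each), a ratio of 2.48.

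Part of that ratio goes with the counts that the locus itself took up in WT. With the miR-144/451 rows left out, miR-210-3p stood at 1034, 946.7 and 748.8 CPM in WT and 1953, 1826 and 1580 CPM in KO. The WT values moved up and the KO values barely changed, since the locus was nearly absent there. The means became 909.9 ± 146 and 1786 ± 189 CPM (SD, n = 3 each), a ratio of 1.96, and the lowest KO library was 1.53 times the highest WT library. After TMM scaling the WT values were 889.8, 875.7 and 684.0 CPM and the KO values 1599, 1663 and 1455 CPM. The ratio of the means was then 1.93, and the fitted log2 fold was 0.95 (SE 0.16). WT library 3 was the lowest of its genotype and KO library 6 the lowest of the other genotype on all 3 scales.

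A ratio to another miRNA in the same library does not depend on scaling. Against miR-16-5p, an abundant miRNA that restrains the cell cycle, miR-210-3p stood at 8.84, 7.06 and 7.78 counts per 1000 miR-16-5p counts in WT and 16.2, 15.3 and 14.7 in KO. The groups were again apart, by a ratio of means of 1.95, and the share of all miRNAs set apart in such a ratio was not computed. This comparison was chosen after the data had been seen. The bulk libraries cannot tell a higher level per cell from a larger share of cells that contain miR-210.

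**Figure D1:**
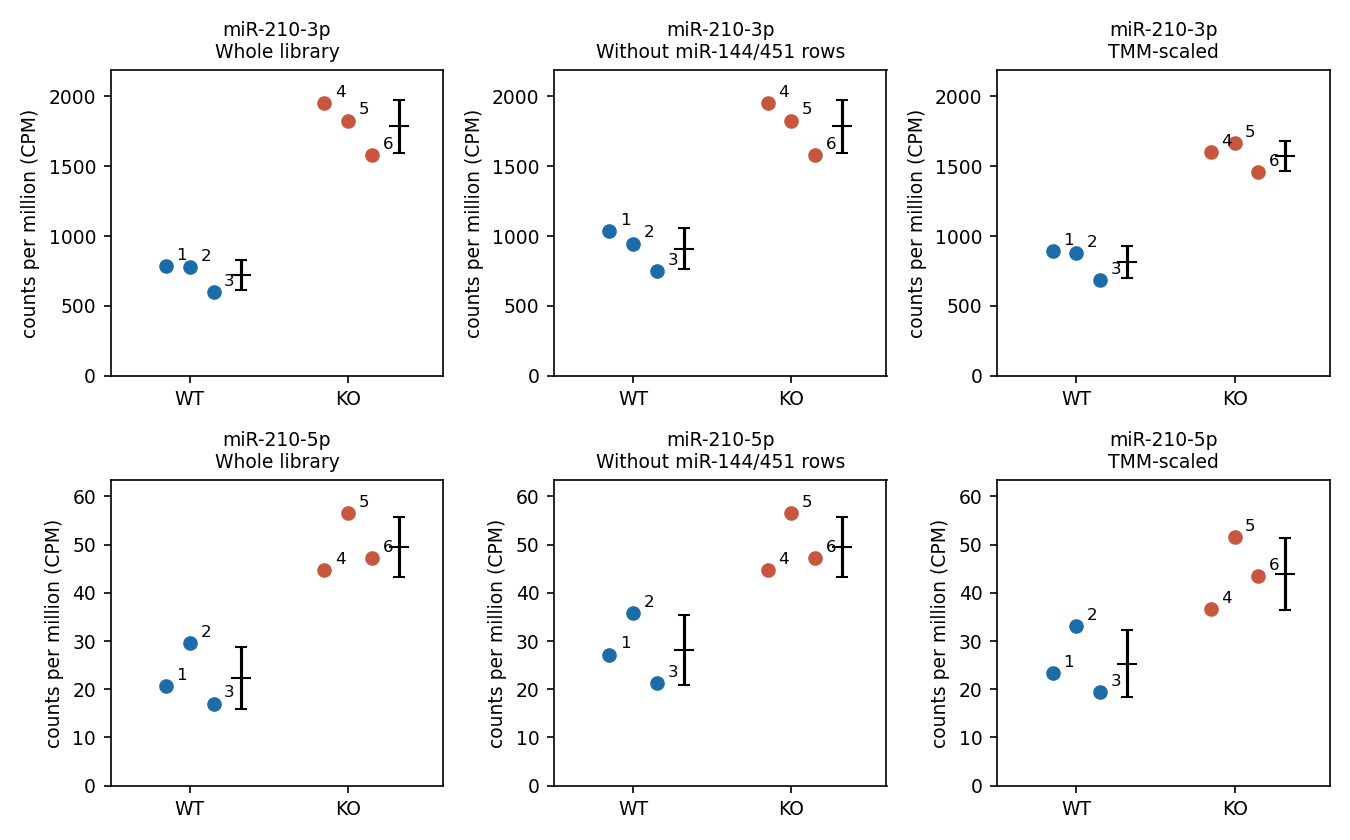
CPM of miR-210-3p (top) and miR-210-5p (bottom) in each library under whole-library scaling, scaling without the miR-144/451 rows and TMM scaling; points are libraries with their numbers, and bars are the mean and SD of 3 libraries. KO libraries lie above WT libraries in every panel, and the distance is larger in the whole-library panels, where the miR-210-3p means are 721.1 CPM for WT and 1786 CPM for KO.

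miR-210-5p, the strand that is mostly discarded, was also higher in KO, at a far lower level. It held 428, 800 and 389 counts in WT libraries and 726, 933 and 1134 counts in KO libraries, so in raw counts WT library 2 lay above KO library 4. In whole-library CPM it stood at 20.6, 29.5 and 17.0 in WT and 44.7, 56.6 and 47.2 in KO. Scaling for depth set the KO values all above the WT values, as for 31.3% of the 873 miRNAs. The lowest KO library was 1.51 times above the highest WT library. The means were 22.4 ± 6.44 and 49.5 ± 6.26 CPM (SD, n = 3 each), a ratio of 2.21. Without the locus rows it stood at 27.2, 35.8 and 21.3 CPM in WT and 44.7, 56.6 and 47.2 CPM in KO. After TMM scaling they were 23.4, 33.1 and 19.5 CPM in WT and 36.6, 51.5 and 43.5 CPM in KO, where KO library 4 was only 1.10 times above WT library 2. The fitted log2 fold was 0.79 (SE 0.26). WT library 2 was thus the high one for 5p but not for 3p, and the within-genotype SD of log2 CPM was 0.33 for 5p against 0.17 for 3p.

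By count, miR-210-3p ranked 96th, 105th and 127th of the 1626 miRNAs in WT libraries 1 to 3 and 77th, 76th and 87th in KO libraries 4 to 6. Leaving out the miR-144/451 rows moved the WT ranks to 93, 102 and 124 and left the KO ranks at 77, 76 and 87. Without any scaling, all 3 KO ranks were thus ahead of all 3 WT ranks, and the share of all miRNAs with ranks set apart in this way was not computed. miR-210-5p ranked 364th, 328th and 390th in WT and 314th, 285th and 319th in KO. Without the locus it ranked 361st, 325th and 387th in WT and 313th, 284th and 318th in KO.

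The miRNAs next to each arm in rank by mean count show how far such neighbours differ. miR-146a-5p, an inflammation-linked miRNA just above miR-210-3p at rank 88, averaged 1348 ± 437 TMM-scaled CPM in WT and 1082 ± 190 in KO (SD, n = 3 each), and its log2 fold was -0.32 (SE 0.26). miR-301a-3p, just below at rank 90, averaged 881.0 ± 59.0 in WT and 1371 ± 135 in KO, a log2 fold of 0.64 (SE 0.14). By mean TMM-scaled level, miR-210-3p therefore stood below both neighbours in WT and above both in KO. Around miR-210-5p, at rank 330, stood the muscle miRNA miR-1a-3p, which was high in WT library 1, and miR-532-3p, with log2 folds of -1.97 (SE 1.42) and -0.25 (SE 0.18).

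Among the 873 tested miRNAs outside the locus, the log2 fold of miR-210-3p was 53rd from the highest and that of miR-210-5p 76th. Most of the larger folds belonged to scarce miRNAs. Among the 232 with a mean of at least 100 TMM-scaled CPM, miR-210-3p had the third highest, after miR-6395 at 1.11 (SE 0.17) and miR-328-3p at 1.11 (SE 0.17). These were near-identical, with counts that differed by at most 0.963%, so they are 1 signal. The edgeR quasi-likelihood fit with Benjamini-Hochberg adjustment called 4 miRNAs outside the locus, 0.458% of 873. It called 0 of the 2 arms (adjusted p = 0.061 for 3p and 0.299 for 5p). Both arms had an unadjusted edgeR p under 0.05, as did 11% of the 873. With limma-voom 5 miRNAs outside the locus were called, and 0 of the 2 arms. DESeq2, which called 0.772% of its 1555 miRNAs outside the locus, called 1 of the 2 arms, miR-210-3p (adjusted p = 0.0118). Nothing is read from these calls, because the arms were chosen with this contrast known. Values in KO all above those in WT were found for both arms and for 15.9% of the 873 miRNAs after TMM scaling. The share was 31.3% in whole-library CPM and 15.1% without the locus rows.

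**Figure D2:**
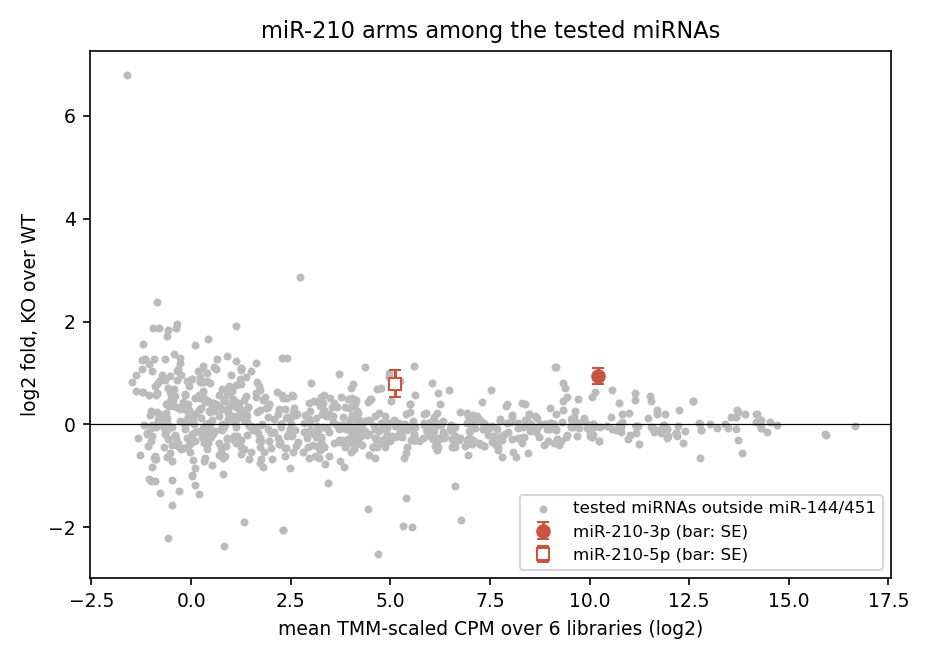
Log2 folds (KO over WT, vertical axis) and mean TMM-scaled CPM (log2, horizontal axis) of the 873 tested miRNAs outside miR-144/451 (grey); red symbols are miR-210-3p (filled circle) and miR-210-5p (open square) with SE bars. miR-210-3p, at 0.95, has the third highest fold of the 232 miRNAs of at least 100 CPM, while miR-210-5p, at 0.79, lies in a region with a wider spread of folds.

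The replicates of miR-210-3p lay fairly close together. Its within-genotype SD of 0.17 on the log2 scale compared with a median of 0.22 for the 232 miRNAs of at least 100 CPM, of which 83 had a lower SD. The level of the hepatocyte markers is set beside that spread, and a link between them was not tested. Those markers summed to 33936, 56121 and 131605 TMM-scaled CPM in WT libraries 1 to 3, where miR-210-3p stood at 889.8, 875.7 and 684.0. They summed to 42258, 49125 and 102326 in KO libraries 4 to 6, where miR-210-3p stood at 1599, 1663 and 1455. The library of each genotype with the most hepatocyte marker counts also had the least miR-210-3p, and the 2 genotypes overlapped in hepatocyte markers. KO library 5, however, had more of both than KO library 4 after TMM scaling. Its miR-210-3p was below that of KO library 4 in whole-library CPM (1825 against 1952). The same order held without the locus rows (1826 against 1953). Hepatocyte sums were not computed on those scales. The TMM-scaled sum was mostly miR-122-5p. miR-802-5p was highest in WT library 3 (71.3) but, within KO, in library 4 (62.0, against 44.1 in KO library 6). The endothelial miR-126a sum was also highest in WT library 3 (10523) and KO library 6 (11046). The level of miR-122-5p, the main hepatocyte miRNA, was also added to the model, a choice made after the data had been seen. The log2 fold of miR-210-3p was then 0.94 (SE 0.09), against 0.95 (SE 0.16) without it. Whether hepatocyte content accounts for the difference in SE was not tested.

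Leaving out each library in turn gave log2 folds between 0.77 and 1.01 for miR-210-3p and between 0.57 and 0.96 for miR-210-5p. The lowest of both came without WT library 3, in which both arms were lowest. Without WT library 1, the library with more muscle and neural miRNAs, the fold of miR-210-3p was 1.01 (SE 0.21) and that of miR-210-5p 0.74 (SE 0.32).

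**Figure D3:**
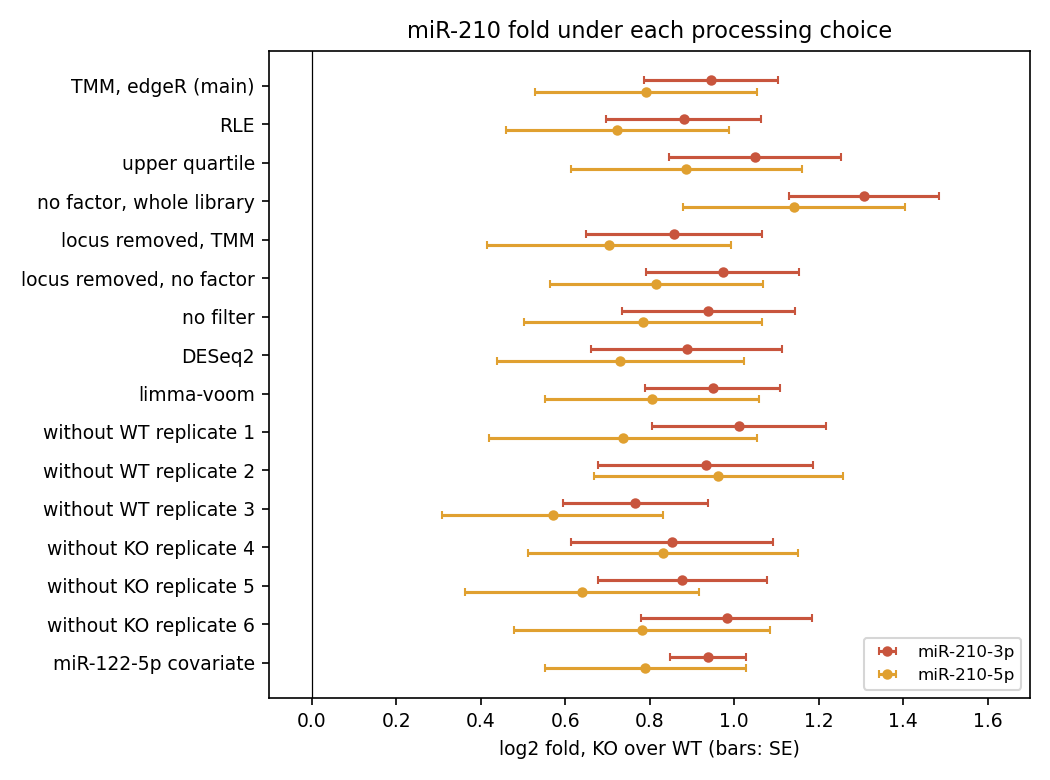
Log2 fold of KO over WT with SE for miR-210-3p and miR-210-5p under each scaling, filter, tool and left-out library, and with miR-122-5p as a covariate. All folds are above 0; those of miR-210-3p range from 0.77 without WT library 3 to 1.31 with no scaling factor on the whole library.

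The balance of the arms stayed strongly towards 3p in both genotypes. The 5p strand took 2.56%, 3.65% and 2.77% of the miR-210 counts in WT libraries 1 to 3 and 2.24%, 3.01% and 2.90% in KO libraries 4 to 6. WT library 2 was the highest and KO library 4 the lowest, and the genotypes overlapped. The Wilson 95% intervals were 2.33% to 2.81%, 3.41% to 3.90% and 2.51% to 3.05% in WT and 2.08% to 2.41%, 2.82% to 3.20% and 2.74% to 3.07% in KO. The libraries thus differed from each other by more than counting error, also within a genotype. Put as a ratio, there were 38.0, 26.4 and 35.1 counts of 3p for each count of 5p in WT and 43.7, 32.3 and 33.5 in KO. The means of the 5p share were 2.99% ± 0.576 in WT and 2.71% ± 0.416 in KO (SD, n = 3 each). Their difference, -0.28 percentage points, was smaller than either SD. Without WT library 2 it was 0.05 percentage points, on the other side of 0. The higher miR-210 level in KO thus held for both arms, and the arm share does not depend on how the library was scaled.

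Other hairpins put this balance in context. In 261 other hairpins outside the locus, each arm of which averaged 10 counts or more, the median 5p share was 50.6%, with 128 below one-to-one and 133 above it. The mean 5p share of miR-210, 2.85%, was higher than that of 42 of them and lower than that of 219. A further 43 had a 5p share above 97.1%, so 85 of the 261 were more one-sided than miR-210, towards either arm. Of the 261, 86 had a smaller difference in 5p share between the genotypes than miR-210, and the median size of that difference was 0.664 percentage points. A share close to 0% or 100% leaves little room for a difference in percentage points. Nothing is therefore read from the place of miR-210 in this order. Genotypes did not overlap in 5p share for 12.2% of the 262 hairpins, and miR-210 was not among these.

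**Figure D4:**
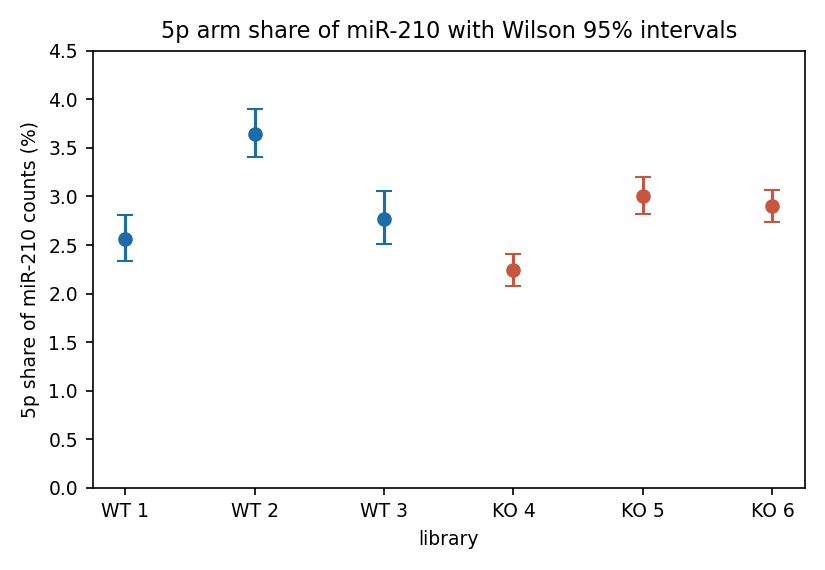
5p share of all miR-210 counts (percent, axis from 0) in each library, with Wilson 95% intervals; blue is WT and red is KO. Shares run from 2.24% in KO library 4 to 3.65% in WT library 2, and the genotypes overlap.

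The miRNAs whose levels followed miR-210-3p most closely were found by the root mean square difference of their log2 TMM-scaled CPM, each centred on its own mean, over the 6 libraries. Any scaling factor of a library cancels in this measure, and the 6 values share the WT and KO contrast. Among 231 other miRNAs of at least 100 CPM, the median difference was 0.59. The nearest was miR-499-5p, from an intron of the myosin gene Myh7b, at 0.15. It stood at 552.4, 555.4 and 409.4 CPM in WT and 783.9, 968.1 and 724.8 CPM in KO. Its lowest libraries within each genotype were also WT library 3 and KO library 6. Next came miR-148b-3p at 0.18, which averaged 1784 ± 322 CPM in WT and 2727 ± 278 in KO (SD, n = 3 each), and miR-301a-3p, also at 0.18, the rank neighbour given above. miR-6395, the near-identical partner of miR-328-3p, was at 0.20 and differed in that KO library 6 was its highest after TMM scaling. Without the locus rows its highest was KO library 4, at 999.7 CPM against 914.2 in KO library 6. miR-1198-5p was at 0.21 and averaged 561.6 ± 101 CPM in WT and 809.8 ± 39.6 in KO (SD, n = 3 each). The partner strand miR-210-5p, too scarce to be in this set, had a difference of 0.22, and 7 of the 231 were nearer to miR-210-3p than that.

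**Figure D5:**
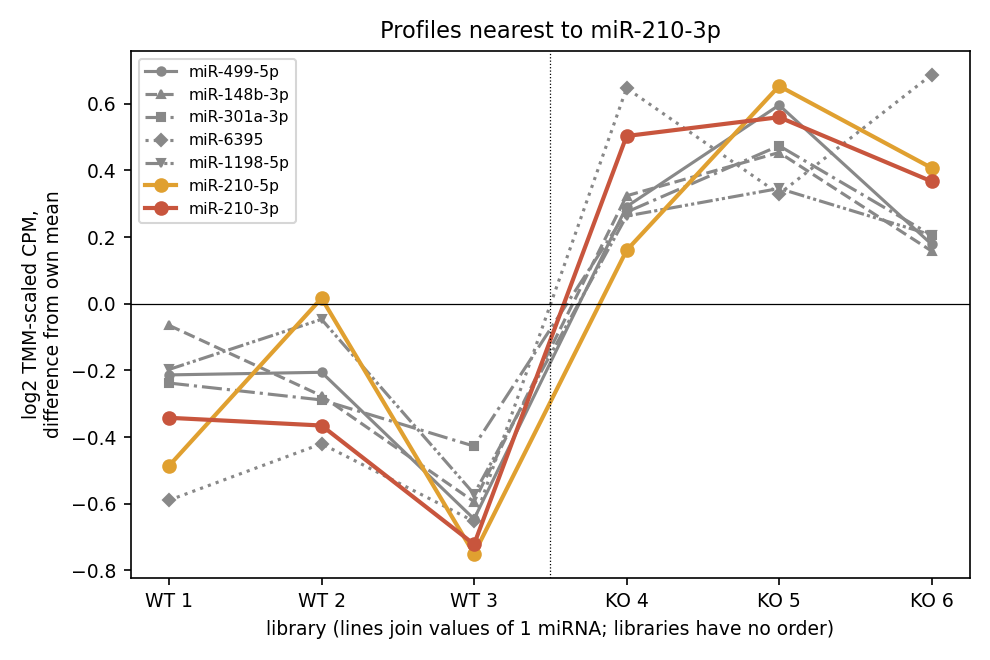
Log2 TMM-scaled CPM of miR-210-3p (red), miR-210-5p (orange) and the 5 miRNAs with the nearest profiles (grey), each as the difference from its own mean, in the 6 libraries; lines only join values of 1 miRNA. All lie higher in KO than in WT, with a trough in WT library 3; miR-6395 departs in KO library 6, and miR-210-5p stands near its own mean in WT library 2.

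The other miRNAs linked to low oxygen were read from 2 lists. A list of 20 miRNAs known from hypoxic cultured cells, miR-210 left out, had a median log2 fold of -0.16, beside -0.01 over all 873 tested miRNAs; 6 members were above 0 and 14 below it. In it edgeR called 0 of 20 and DESeq2 0 of 20, against 0.458% and 0.772% of all miRNAs, and 4 of 20 had an unadjusted edgeR p under 0.05, against 11% of all. With no scaling factor on the whole library edgeR called 4 of the 20, all higher in KO. In that setting it called 58 of the 873, also all higher in KO, and the median log2 fold of the 873 was 0.34. With miR-122-5p in the model edgeR called 2 of the 20, both higher in KO, beside 16 of the 873. These 2 had near-identical counts and were also among the 4, so neither number counts separate signals. Of the most abundant members, miR-30b-5p stood at -0.07 (SE 0.10), miR-93-5p at 0.10 (SE 0.15), miR-21a-5p at 0.02 (SE 0.12) and miR-26a-5p at 0.24 (SE 0.12). All 4 were more abundant than miR-210-3p; the lowest of them, miR-26a-5p, averaged 12490 ± 404 CPM in WT and 14705 ± 1572 in KO (SD, n = 3 each). The highest folds of the list, named after their values were seen, were those of miR-103-3p and miR-107-3p, both at 0.46 (SE 0.10), with counts within 0.152% of each other. The KO values were all higher than the WT values for 4 members, 20.0% of the list against 15.9% of all miRNAs. They were all lower for 7 members, 35% of the list against 5.61% of all miRNAs. miR-23a-3p and miR-23b-3p were also near-identical, with counts within 0.0633% of each other, so the list holds fewer than 20 separate signals.

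The second list held 9 miRNAs known to target the hypoxia-inducible factor or its inhibitor FIH. Their median log2 fold was -0.25, and 1 was above 0 and 8 below it. Here edgeR called 0 of 9, DESeq2 0 of 9, and 0 of 9 had an unadjusted edgeR p under 0.05, where the shares over all miRNAs were 0.458%, 0.772% and 11%, so few or none would be called at those shares. The most abundant came from the miR-17-92 cluster, which promotes proliferation. miR-20a-5p stood at -0.09 (SE 0.14), miR-17-5p at -0.08 (SE 0.16) and miR-18a-5p at -0.04 (SE 0.17). miR-31-5p, known to repress FIH, averaged 689.7 ± 124 CPM in WT and 550.7 ± 60.4 in KO (SD, n = 3 each), and its log2 fold was -0.32 (SE 0.19).

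The miRNAs that lie near Mir210 on chromosome 7 were also looked up. RefSeq places 10 other hairpins within 5 Mb, and 8 mature miRNAs from 4 of them were tested. In this set edgeR called 0 of 8 (0.458% of all miRNAs), DESeq2 0 of 8 (0.772%), and 1 of 8 had an unadjusted edgeR p under 0.05 (11% of all), so these counts lie near the background. Their median log2 fold was -0.07, and 3 were above 0 and 5 below it. The most abundant came from 2 imprinted loci. miR-483-3p, from Igf2, whose hairpin is at 142654924 to 142654996, stood at 62.6, 133.9 and 255.8 CPM in WT and 70.7, 107.9 and 169.4 in KO, a log2 fold of -0.38 (SE 0.54). Its genotypes overlapped, and its highest libraries were WT library 3 and KO library 6, where miR-210-3p was lowest. miR-675-3p, from H19 at 142577064 to 142577147, stood at 30.2, 44.0 and 69.4 CPM in WT and 37.3, 46.2 and 54.9 in KO (log2 fold -0.05, SE 0.33), with the same libraries highest. The nearest tested hairpin, Mir7063 at 0.399 Mb, gave 2 scarce strands. miR-7063-5p stood at 0.820 ± 0.208 CPM in WT and 1.016 ± 0.455 in KO (SD, n = 3 each), with overlapping genotypes and a log2 fold of 0.32 (SE 0.44). miR-7063-3p stood at 0.301 ± 0.144 CPM in WT and 0.748 ± 0.124 in KO (SD, n = 3 each), under 1 CPM. Its log2 fold was 1.28 (SE 0.46, edgeR adjusted p = 0.34). It was the 1 of the 8 with KO values all above WT values, beside 15.9% of all miRNAs after TMM scaling.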

How the data were processed

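Small RNA libraries (Qiagen miRNeasy Mini RNA, NEXTflex kit, HiSeq2000, per the labels) gave raw read counts per mature miRNA, deposited by the authors beside a percent column that equals the count over the library total, to within 5.0e-09. Among tools, cutadapt (an adapter trimmer) is listed per the submitters' processing notes. How reads were aligned, to which build and annotation release, and how multiply matching reads were handled, is not given in the sources used here. All values were treated as miRNA sequencing of total RNA, as the labels have it, although the design text speaks of HITS-CLIP. No replicates matched within sampling noise (chi-square per degree of freedom 152 to 2335).

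Counts of all miRNAs were fitted in R 4.3.3 with edgeR 4.0.16 (quasi-likelihood, TMM, filterByExpr, which left out 750 of 1626), calling an adjusted p (Benjamini-Hochberg) under 0.05. SE is the absolute log2 fold over the square root of F. DESeq2 1.42.0 and limma-voom 3.58.1 were alternatives. Folding used ViennaRNA 2.7.2. The members and lists were chosen with earlier results of these data known; the lists were recalled, not taken from a file. Named miRNAs were both arms, seed sharers, the 5 nearest profiles, rank neighbours, tested miRNAs within 5 Mb, and the called and 4 most abundant members of the 2 lists.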

Additional observations from a re-analysis of the deposited data

How the results depend on the processing

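No paired analysis was possible because the WT libraries carry the numbers 1 to 3 and the KO libraries 4 to 6, with none shared. The log2 folds of both arms stayed above 0 under each scaling, filter, tool and left-out library run. They moved by more than the within-genotype SD with no scaling factor on the whole library, to 1.31 for miR-210-3p and 1.14 for miR-210-5p, where the median of the other miRNAs moved to 0.34. The fold of miR-210-3p also moved by more than that SD without WT library 3, to 0.77. With no scaling factor on the whole library edgeR called both arms (adjusted p = 0.0146 and 0.0477). In that setting it called 58 of the 873 miRNAs outside the locus, all higher in KO. With the miR-122-5p covariate edgeR called miR-210-3p (adjusted p = 0.00283), beside 16 of the 873. Leaving out 1 library gave 0.77 to 1.01 for miR-210-3p, with edgeR adjusted p of 0.191 to 0.61. For miR-210-5p it gave 0.57 to 0.96, with edgeR adjusted p of 0.408 to 0.747. The difference in 5p share ran from -0.49 to 0.05 percentage points, and was -0.14 as log2((5p + 1)/(3p + 1)).

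Over all miRNAs outside the locus, the 4 edgeR calls became 1 with RLE scaling, upper-quartile scaling or the locus removed (with and without TMM), 58 with no factor on the whole library, 12 with DESeq2 and 16 with the miR-122-5p covariate, which was added after the data had been seen. Leaving out 1 library gave 0 to 1. Among the 20 hypoxia-linked miRNAs the calls went from 0 to 4 with no factor on the whole library (miR-26a-5p, miR-26b-5p, miR-103-3p and miR-107-3p) and to 2 with the covariate (miR-103-3p and miR-107-3p), all higher in KO. The 2 called with the covariate had near-identical counts, so they are not separate signals. The cause of these changes in the calls was not tested. With near-identical miRNAs taken as 1, the mean rank of miR-210-3p went from 109.3 to 94.7 in WT and from 80 to 70.3 in KO. With at least 100 counts for each arm, 20 of 154 other hairpins had a lower 5p share than miR-210. Scaling cannot change the distances between profiles, so finding the same 5 nearest profiles without the locus says nothing about their stability.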
